A study of Homo sapiens with 12 samples.

Results

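The regions described here are 8927 sites at which acetylated H2A.Z (H2A.Zac) was lower in a ΔTRRAP clone than in a WT clone. The ΔTRRAP clone expressed EP400, a subunit of the TIP60 complex, without the part that binds TRRAP. The sites lie away from gene starts and where no H2A.Z region was listed. They were chosen by measured values: each was called by the authors as higher in the WT line than in the ΔTRRAP line, overlapped no 2-kb window centered on the transcription start site (TSS) of any gene of GENCODE release 44, and shared no base with any region of the 3 H2A.Z lists. They make up 8927 of the 24482 lost H2A.Zac regions, of 94586 H2A.Zac regions, and of 158028 regions of both marks. They are called distal lost loci without H2A.Z below. The label holds as far as the lists go, but a missing H2A.Z region means that no interval passed the calling steps there, not that the histone was absent. The classes that chose the loci and the likelihood ratios behind them are given as a description, and no test was made on them.

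ChIP-seq was done in K562, a human chronic myeloid leukemia cell line of erythroid and megakaryocytic character. In all cells, endogenous EP400 carried a dTAG degron and was degraded with 500 nM dTAGV-1 for 24 h, and an EP400 transgene at the AAVS1 site within PPP1R12C took its place. The WT line expressed full-length EP400, and the ΔTRRAP line expressed EP400 without the part that binds TRRAP, with a single clone for each line. The 12 libraries were 2 replicates each of input, H2A.Z and H2A.Zac in the 2 lines. The deposited lists come from merged replicates, so each region has 1 value, the log10 likelihood ratio of WT against ΔTRRAP. The depth is unknown here, no spread between replicates can be given, and differences between the clones and effects of the deletion cannot be told apart.

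H2A.Z is a histone H2A variant found around gene starts and at enhancers. The TIP60 complex, built on the EP400 ATPase, places H2A.Z in nucleosomes and acetylates histones through its KAT5 subunit, while TRRAP is a large scaffold protein that sequence-specific activators such as MYC contact. MYC with its partner MAX binds the E-box CACGTG, and other basic helix-loop-helix proteins, among them USF1, USF2, MITF and TFE3, bind the same letters. GATA1 is the main erythroid factor that binds GATA motifs, and AP-1 dimers of FOS and JUN proteins bind TGACTCA.

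The sequence at the centers of the loci differed from that of gained and unchanged distal H2A.Zac regions, and less from that of lost regions with H2A.Z. The E-box was singled out of the 12 motifs searched after their shares were seen. The letters CACGTG lay in the central 300 bases of 872 of the 8927 loci. The 5 of these with the highest likelihood ratios are shown first, as 60 bases of hg38 with the E-box in capitals. They lie at chr7:113152773-113152832 between genes, at chr5:177089486-177089545 in an intron of FGFR4, at chr20:63772889-63772948 in an intron of ZBTB46, at chr19:55270226-55270285 in an intron of HSPBP1, and at chr20:30228191-30228250 between genes, all on the plus strand. They were picked after the motif shares were seen.
E-box locus 1: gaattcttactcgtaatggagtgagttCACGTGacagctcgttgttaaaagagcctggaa
E-box locus 2, FGFR4: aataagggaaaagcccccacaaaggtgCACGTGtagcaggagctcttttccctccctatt
E-box locus 3, ZBTB46: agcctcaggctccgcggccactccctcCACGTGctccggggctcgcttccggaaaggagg
E-box locus 4, HSPBP1: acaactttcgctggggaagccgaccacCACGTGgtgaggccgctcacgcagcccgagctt
E-box locus 5: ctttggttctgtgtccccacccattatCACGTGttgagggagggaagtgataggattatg

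These 5 loci had likelihood ratios of 75.5, 66.4, 66.3, 66.2 and 61.6. In the FGFR4 locus the E-box sat 1 base from the center of the region, in HSPBP1 19 bases from it and in the others 55 to 91 bases from it. FGFR4 encodes a fibroblast growth factor receptor and HSPBP1 a co-chaperone of HSP70.

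The central 300 bases of the 3 loci with the highest likelihood ratios, and of the highest locus that held a GATA motif joined to a short E-box element (the pairing at which GATA1 and TAL1 can bind together) are shown next, as the loci with the largest measured values. They were chosen by ratio or for the joined motif, and the E-box loci above for CACGTG, so a difference in these letters between the groups says nothing. Capitals mark any match to the CACGTG E-box, to the GATA1, AP-1 or TAL1 motifs given below, or to the whole joined motif in the last of them. They lie at chr5:3838345-3838644 and chr5:3822654-3822953 between genes, at chr9:136198622-136198921 in coding sequence of LHX3, and at chr7:113184520-113184819 between genes, on the plus strand of hg38.
Highest locus: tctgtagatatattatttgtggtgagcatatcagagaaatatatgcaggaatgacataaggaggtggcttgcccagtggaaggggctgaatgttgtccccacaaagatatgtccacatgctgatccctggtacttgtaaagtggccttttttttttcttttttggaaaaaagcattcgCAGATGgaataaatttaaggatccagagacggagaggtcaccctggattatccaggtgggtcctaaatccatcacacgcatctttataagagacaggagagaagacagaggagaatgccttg
Second locus: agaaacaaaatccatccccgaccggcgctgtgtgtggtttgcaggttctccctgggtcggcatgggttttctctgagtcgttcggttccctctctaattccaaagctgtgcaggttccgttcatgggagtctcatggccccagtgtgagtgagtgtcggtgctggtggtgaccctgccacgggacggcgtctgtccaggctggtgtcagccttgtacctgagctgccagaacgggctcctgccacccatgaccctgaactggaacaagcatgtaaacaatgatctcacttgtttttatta
LHX3 locus: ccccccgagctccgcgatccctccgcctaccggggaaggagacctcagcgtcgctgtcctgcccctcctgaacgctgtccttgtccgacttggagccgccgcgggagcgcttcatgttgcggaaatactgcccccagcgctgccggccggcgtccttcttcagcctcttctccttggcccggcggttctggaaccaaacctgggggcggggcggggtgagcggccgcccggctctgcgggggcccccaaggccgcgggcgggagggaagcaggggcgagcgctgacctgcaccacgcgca
Joined-motif locus: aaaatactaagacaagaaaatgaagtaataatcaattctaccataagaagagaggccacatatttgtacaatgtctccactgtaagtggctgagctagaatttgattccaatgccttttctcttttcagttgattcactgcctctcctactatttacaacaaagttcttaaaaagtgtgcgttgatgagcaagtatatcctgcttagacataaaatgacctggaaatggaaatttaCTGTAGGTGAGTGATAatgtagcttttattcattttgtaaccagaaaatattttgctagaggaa

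None of these 4 windows held CACGTG, and those of the second locus and of LHX3 held no marked match. GC content ran from 33.7% in the joined-motif locus to 72.3% in LHX3.

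CACGTG was found in 9.77% of the distal lost loci without H2A.Z (872 of 8927; Wilson 95% confidence interval, 9.17 to 10.4%). It was found in 2.78% of the 7978 distal gained regions without H2A.Z (2.44 to 3.17%) and in 6.25% of the 11673 distal unchanged regions without H2A.Z (5.82 to 6.70%). The 10252 distal lost regions that did share a base with H2A.Z stood between, at 7.78% (7.28 to 8.32%), and all H2A.Zac regions together were at 5.91%. These 4 intervals did not overlap. They cover counting error only, and neighboring regions are not independent. Leaving out single chromosomes moved the lost loci's share between 9.60 and 10.004%. In windows of the same length 3 kb to each side of the same centers, the shares were close together, at 3.797% for the lost loci, 3.37% for the gained and 3.39% for the unchanged regions without H2A.Z, and 3.77% for the lost regions with H2A.Z.

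**Figure D1:**
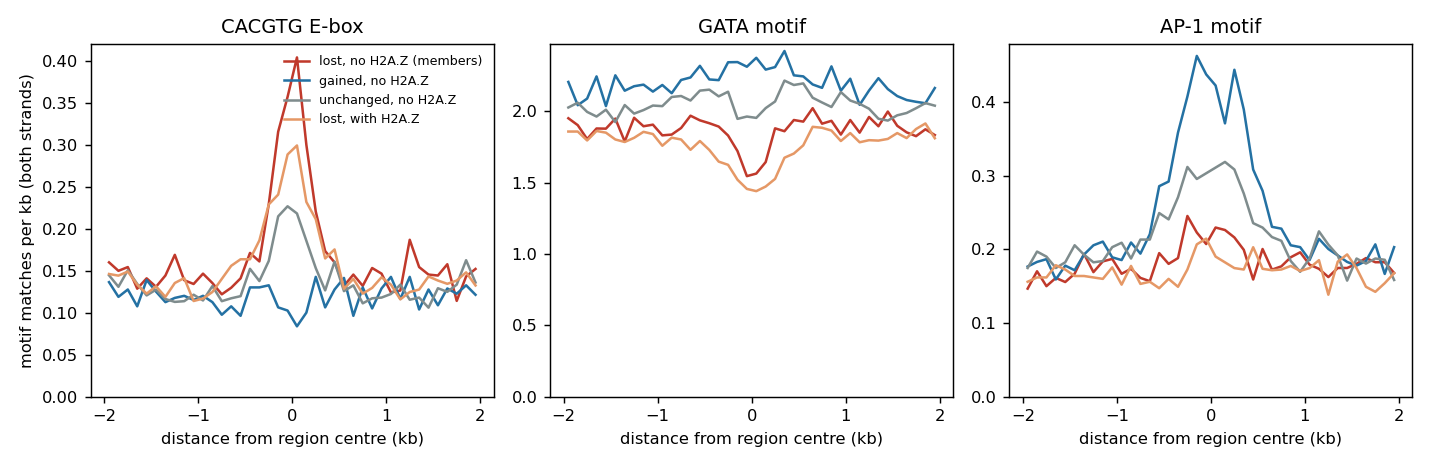
Motif matches per kb on both strands (y axis) in bins of 100 bases by distance from the region center in kb (x axis), for the E-box, the GATA1 motif and the AP-1 motif in the 4 sets of distal H2A.Zac regions. CACGTG peaks at the center of the lost loci and not of the gained regions, AP-1 peaks highest in the gained regions, and GATA dips at the center of the lost regions.

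Within 100 bases of the center, the lost loci held 0.381 CACGTG matches per kb, against 0.145 per kb at 1 to 2 kb from it, a ratio of 2.62. The ratio was 2.198 in the lost regions with H2A.Z and 1.74 in the unchanged regions. In the gained regions it was 0.756, so the E-box was less frequent at their center than in their surroundings. AP-1 and GATA motifs ran the other way, with ratios for AP-1 of 1.27 in the lost loci, 1.64 in unchanged and 2.28 in gained regions, and for GATA of 0.822, 0.975 and 1.10. Lost regions with H2A.Z were close to the lost loci, at 1.22 for AP-1 and 0.791 for GATA.

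The 28578 distal H2A.Zac regions without H2A.Z can also be divided by sequence. Of all 28578, 31.2% were called lost and 27.9% gained. Of the 1823 with CACGTG at the center, 47.8% were lost (45.5 to 50.1%) and 12.2% gained (10.8 to 13.8%). Of the 26755 without it, 30.1% were lost and 29.0% gained. Where CACGTG occurred 2 or more times, in 102 regions, 56 were lost and 7 gained. Where CACGTG was present with neither a GATA nor an AP-1 motif, 580 of 1108 were lost (52.3%), and where a GATA motif lay beside it, 250 of 621 were lost (40.3%). Regions with GATA and AP-1 motifs and no CACGTG went the other way, with 182 of 984 lost (18.5%) and 407 gained (41.4%). Since the classes are those that chose the loci, these shares describe how sequence and class go together and are not a test.

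CACGTG contains a CpG, and GC content differed between the sets, with medians over the central 300 bases of 48.7% in the lost loci, 45.3% in the gained and 47.3% in the unchanged regions. The order of lost, unchanged and gained regions without H2A.Z was the same in each GC class. Where GC was under 40%, CACGTG was found in 3.81% of lost loci, 3.13% of unchanged and 1.32% of gained regions. At 55 to 60% GC the shares were 14.1%, 8.06% and 3.15%, and at 60% or more they were 17.4%, 10.6% and 5.38%. The intervals of lost and gained regions were apart in each of the 6 classes, while those of lost and unchanged regions overlapped under 40% and at 45 to 50%. Lost regions with H2A.Z were at 3.86% under 40% GC, close to the lost loci, and at 7.11% at 45 to 50%, below the unchanged regions (7.32%). Their intervals overlapped those of the lost loci in the 4 classes under 55%. At 55 to 60% GC they were at 8.31%, and at 60% or more at 11.9%. In both classes they were near the unchanged regions, with intervals wholly below those of the lost loci.

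**Figure D2:**
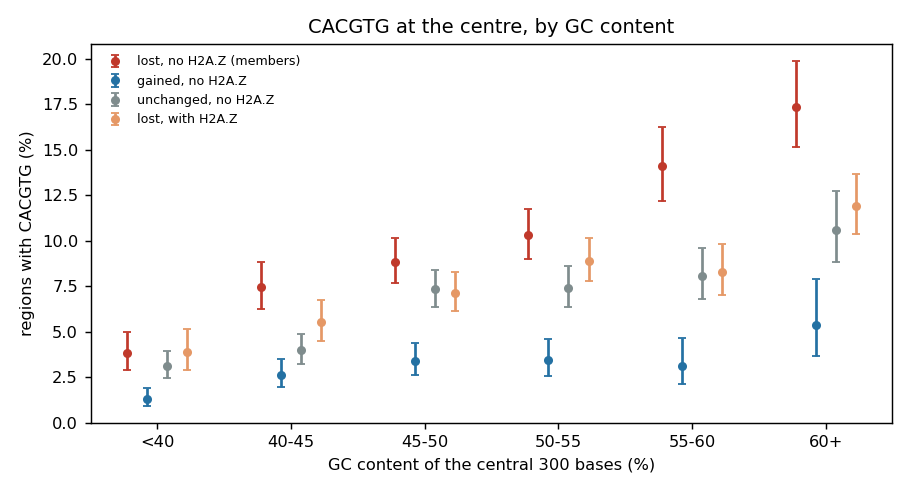
Share of regions with CACGTG in the central 300 bases (y axis, %) by GC content of those bases (x axis, %), with Wilson 95% intervals as bars, for the 4 sets of distal H2A.Zac regions. The lost loci without H2A.Z lie above the gained regions in each class, from 3.81 against 1.32% to 17.4 against 5.38%.

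Palindromes of the same letters in another order, chosen after the E-box shares were seen, differed less, and for all 5 the intervals of lost and gained regions overlapped. GACGTC was found in 1.14% of the lost loci and 1.17% of the gained regions, GTCGAC in 0.538 and 0.552%, CTCGAG in 2.15 and 1.70%, AGCGCT in 2.15 and 1.72%, and TGCGCA in 1.60 and 1.18%. The bases beside the E-box, also compared after its shares were seen, were not all alike. CCACGTGG was found in 1.99% of lost loci and 0.401% of gained regions, CCACGTGC in 1.87 and 0.376%, and ACACGTGG in 1.81 and 0.464%. Of the 10 forms, the intervals of lost and gained regions overlapped for TCACGTGA (0.280 and 0.175%) and ACACGTGA (0.426 and 0.288%).

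The share of lost loci with CACGTG was lowest at the lowest likelihood ratios. It was 8.10% (6.82 to 9.59%) at ratios of 3 to 5 and 9.59% (8.70 to 10.6%) at 5 to 10. It was 10.8% (9.69 to 12.1%) at 10 to 20 and 10.2% (8.44 to 12.2%) at 20 or more. Only the interval at 10 to 20 was apart from that at 3 to 5. In lost regions with H2A.Z the shares also rose, from 5.90% at 3 to 5 to 7.27, 8.96 and 9.30%. For lost loci with no other H2A.Zac region within 1 kb the share was 11.4%, and for the rest 8.40%. The other sets went the same way, at 7.94 and 5.60% in unchanged regions without H2A.Z and 9.25 and 6.90% in lost regions with H2A.Z. Gained regions without H2A.Z were at 3.28 and 2.51%, with overlapping intervals. For lost loci with the nearest H2A.Z region within 1 kb the share was 7.11%. It was 10.99% at 1 to 10 kb and 9.74% over 10 kb away, so it did not rise steadily with distance. Loci with CACGTG had a median likelihood ratio of 8.83 and a median width of 618 bp, against 8.35 and 636 bp for loci without it, and 53.2% of them had no other H2A.Zac region within 1 kb, against 44.8%. They were spread over 788 nearest protein-coding genes.

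The H2A.Z lists, made with another antibody on the same clones, gave the same order. Among distal H2A.Z regions, CACGTG was found in 6.35% of lost, 5.00% of unchanged and 3.03% of gained regions. Among those that shared no base with H2A.Zac the shares were 4.80%, 3.69% and 2.85%, where the interval of unchanged regions (3.19 to 4.26%) overlapped both others.

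GATA motifs on both strands (AGATAA and TGATAA, and the forms AGATAG and TGATAG) were the most frequent of the 12 motifs searched and ran the opposite way. They were found in 35.2% of the lost loci (34.2 to 36.2%), 41.4% of unchanged regions and 47.8% of gained regions without H2A.Z, and in 33.0% of lost regions with H2A.Z. At 3 kb from the centers the shares were 40.3, 41.6, 44.2 and 39.3%, and the lost loci held fewer GATA motifs at the center than there. GATA motifs are rich in A and T, and GC content in the lost loci had a median of 48.7% at the center and 45.2% at 3 kb. By GC class, the shares in lost and unchanged regions had overlapping intervals under 40% GC (58.8 and 59.3%), at 55 to 60% (20.2 and 20.7%) and at 60% or more (10.2 and 14.0%), and were lower in lost loci in between, as at 45 to 50% (37.2 and 44.8%). The GATA motif with a short E-box element was found in 2.90% of lost loci and 4.51% of gained regions.

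AP-1 motifs (TGACTCA or TGAGTCA) were found in 6.30% of the lost loci, 8.54% of unchanged and 11.2% of gained regions without H2A.Z, in 5.69% of lost regions with H2A.Z, and, for the 3 sets without H2A.Z, in 5.05, 4.95 and 4.88% of windows 3 kb away. STAT motifs (TTCCNNGAA) followed the same order, at 4.72, 5.67 and 6.29%. RUNX (TGTGGT) was found in 21.5% of lost loci, 19.98% of unchanged and 19.3% of gained regions, and part of the CTCF core (AGGGGGC) in 6.15, 5.15 and 4.49%. TAL1 E-boxes (CAGATG or CAGCTG) hardly differed, at 31.5, 31.4 and 30.9%. KLF (CCACACCC) was found in 3.92% of lost loci, ETS (CCGGAAG) in 2.25%, E2F (TTTGGCGC or TTTCCCGC) in 0.538% and CRE (TGACGTCA, which holds GACGTC) in 0.213%. These motifs are given for the lost loci only, so whether their shares differed between the sets is not stated here. A match is a run of letters in the reference genome and shows no binding.

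The likelihood ratio of the lost loci had a median of 8.42, with quartiles of 5.72 and 13.5 and a maximum of 188. It was at least 10 in 3587 loci (40.2%) and at least 50 in 59. Just inside the cutoff of 3, the lowest ratios were 3.16, 3.23 and 3.23, and just outside it the highest ratios of unchanged distal regions without H2A.Z were 2.87, 2.87 and 2.84. The ratio is not a fold change. It correlated with width across loci (Spearman's rho of 0.57; loci share libraries and depth). The loci were 250 to 7144 bp wide, with a median of 634 bp, against 660 bp for gained, 557 bp for unchanged and 795 bp for lost regions with H2A.Z, and covered 7.02 Mb in all. Across all H2A.Zac regions, 25.9% were called lost and 26.3% gained.

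Not every locus stood by itself. An unchanged H2A.Zac region shared a base with 2292 loci (25.7%), so that both can be parts of 1 peak, and spanned 50% or more of 660 of them (7.39%). No gained H2A.Zac region shared a base with a locus. Lost and gained are opposite directions of the same ratio, so this follows from the calling and is not a finding. In 45.6% of loci there was no other H2A.Zac region within 1 kb, against 35.6% of gained and 27.7% of unchanged regions without H2A.Z. For the 7203 loci with another H2A.Zac region within 10 kb, the nearest one was unchanged in 62.3%, lost in 35.1% and gained in 2.65%. For gained regions without H2A.Z the nearest was unchanged in 71.0%, gained in 27.1% and lost in 1.84%.

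Introns held the centers of 50.3% of the lost loci (49.3 to 51.4%), and 42.8% were intergenic. Gained regions without H2A.Z were more often intronic (64.3%) and less often intergenic (29.2%), unchanged regions lay between (59.5 and 33.3%), and lost regions with H2A.Z were still less often intronic (42.2 and 50.3%). Coding sequence held 1.95% of the centers of lost loci, untranslated exon sequence 2.07% and exons of non-coding genes 2.86%. The median distance to the nearest TSS was 11836 bp, against 14879 bp for gained and 13083 bp for unchanged regions and 11806 bp for lost regions with H2A.Z. Of the loci, 12.4% were over 50 kb from any TSS. That share depended on the TSSs used, at 37.3% with protein-coding genes only and 7.75% with every transcript.

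**Figure D3:**
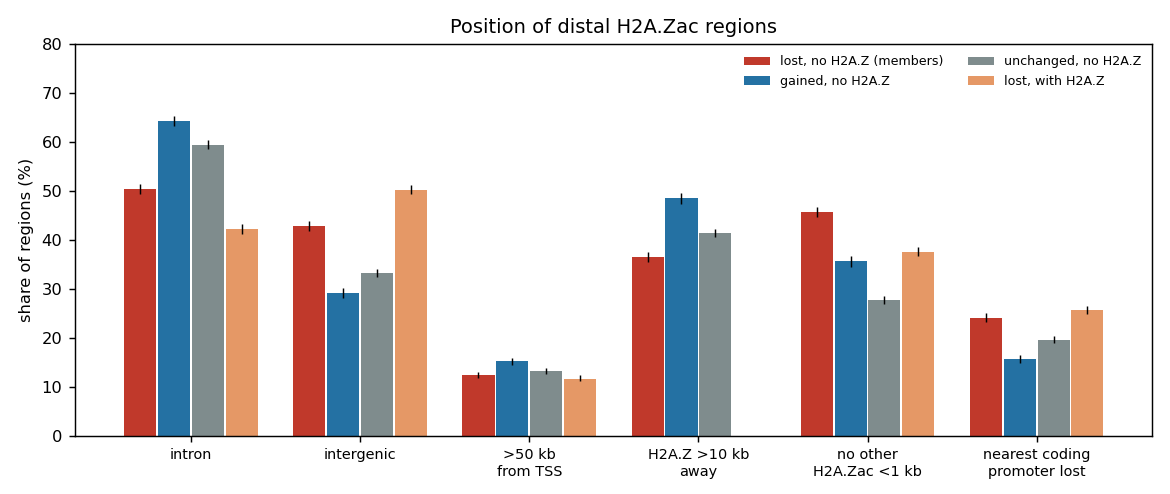
Share of regions (y axis, %) in each position class (x axis) for the 4 sets of distal H2A.Zac regions, with Wilson 95% intervals as bars. The lost loci without H2A.Z are less often intronic than the gained and unchanged regions without H2A.Z (50.3 against 64.3 and 59.5%), and lost regions with H2A.Z have no bar over 10 kb from H2A.Z by the way they were chosen.

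No H2A.Z region shared a base with a locus, by the rule, but 2 loci directly abutted one. The median gap to the nearest H2A.Z region was 5480 bp, against 9295 bp for gained and 6559 bp for unchanged regions without H2A.Z. It was at most 1 kb in 19.7% of loci, over 10 kb in 36.6% and over 100 kb in 4.02%. A lost H2A.Z region lay within 10 kb of 32.0% of the lost loci, against 8.65% of gained and 17.9% of unchanged regions. A gained H2A.Z region lay within 10 kb of 10.9% of the lost loci, against 18.4% of gained and 15.2% of unchanged regions. The nearest protein-coding promoter held a lost H2A.Zac region for 24.1% of the lost loci (23.2 to 25.005%), against 15.6% of gained and 19.6% of unchanged regions. It held a gained one for 35.6% of the lost loci, against 40.3 and 40.7%. Gained regions outnumbered lost ones near TSSs in general, at 9404 against 5303. For 30.9% of the lost loci the nearest promoter held no H2A.Zac region.

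Among distal H2A.Zac regions without H2A.Z that changed, 52.8% were lost (8927 of 16905). The share was 72.2% on chromosome 20 (317 lost and 122 gained) and 66.0% on chromosome 19 (379 and 195), and 45.5% on chromosome 18. Chromosomes 22 (61.9%), 16 (58.9%), 12 (58.5%) and 14 (57.3%) also had intervals wholly above 52.8%, and chromosomes 1, 3, 6, 8, 13 and 18 had intervals wholly below it. These intervals cover counting error only, and neighboring regions are not independent, so they are too narrow as a measure of difference. The 52.8% includes each chromosome set beside it, and no test was made. Without chromosomes 19 and 20 the share was 51.8%. Within some chromosomes it varied further, in stretches chosen after their values were seen. From 30 Mb of chromosome 20 to its end, 228 regions were lost and 61 gained (78.9%), from 40 Mb of chromosome 19 to its end 153 were lost and 65 gained (70.2%), and from 190 Mb of chromosome 3 to its end 92 were lost and 14 gained (86.8%). Chromosome 3 as a whole had 48.1%. Input libraries and the copy number of the clones were not analysed here, and their part in these shares was not tested.

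**Figure D4:**
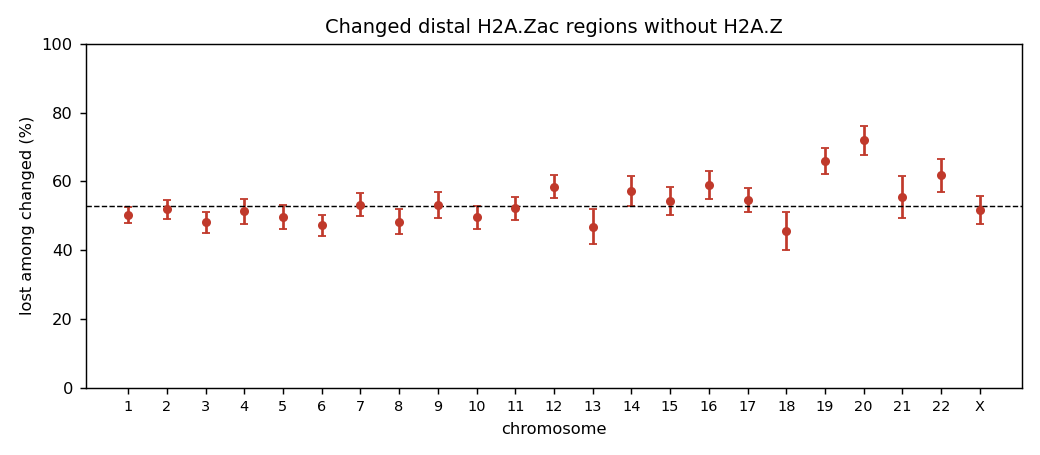
Share of lost regions among the changed distal H2A.Zac regions without H2A.Z (y axis, %) by chromosome (x axis), with Wilson 95% intervals as bars and the share over all chromosomes, 52.8%, as a dashed line. Chromosomes 20 and 19 are highest, at 72.2 and 66.0%, and the intervals of 12, 14, 16 and 22 also lie above the line. The bars cover counting error only.

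The 8 highest likelihood ratios lay on 7 chromosomes. The first and second loci, with ratios of 188 and 127, are both on chromosome 5, at 3837441 to 3839548 and 3821959 to 3823648, between genes, with IRX1, a homeobox gene, 243 and 227 kb away. From 120 kb before to 250 kb after the center of the first, the lists held 6 H2A.Zac regions, of which 3 are loci of the set described here, and 10 H2A.Z regions. All 16 were lost, a count that holds only for these bounds, which are not symmetric. The nearest H2A.Z region was 1.08 kb from the first locus and 0.721 kb from the second.

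**Figure D5:**
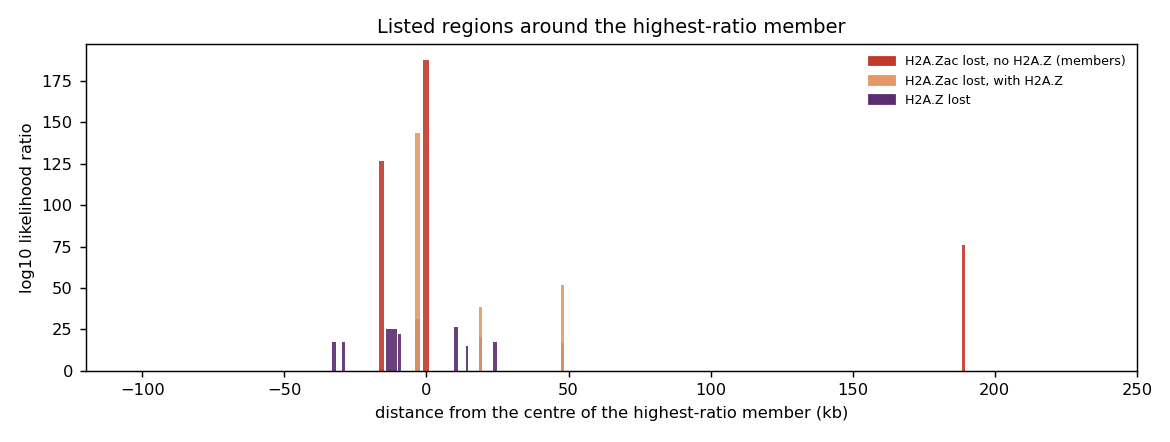
Log10 likelihood ratio (y axis) of every listed region from 120 kb before to 250 kb after the center of the highest locus (x axis, distance in kb), with bar widths to scale down to a drawn minimum of 0.9 kb. All 6 H2A.Zac and 10 H2A.Z regions are lost, and the 3 loci without H2A.Z have ratios of 188, 127 and 75.8.

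The third locus, with a ratio of 108, is 518 bp wide and lies in LHX3, which encodes a LIM homeobox factor of the pituitary and motor neurons. The fourth (chromosome 13, 86541637 to 86542962, 92.1) is the most isolated of the 8 highest, 736 kb from the TSS of SLITRK6 and 1681 kb from any H2A.Z region. The fifth (chromosome 7, 113183944 to 113185396, 90.2) is the joined-motif locus, 66.1 kb from SMIM30 and on the same side of it as the first E-box locus. The sixth lies in an intron of LRRC7, which encodes a scaffold protein of synapses (90.1), the seventh in untranslated exon sequence of SLC8B1, the mitochondrial sodium-calcium exchanger (82.5), and the eighth, at 4702 bp the widest of them, 52.7 kb from IL7, the cytokine interleukin 7 (78.7). Of these 8, only the seventh had an unchanged region as its nearest H2A.Zac neighbor.

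Of 5309 windows of 100 kb that held a locus, 3277 (61.7%) held exactly 1, which is 36.7% of the loci, and 180 held 5 or more, with 12.4% of all loci. The fullest window, with 13, was on chromosome 20 from 4.0 to 4.1 Mb at RNF24 and SMOX, the spermine oxidase gene. Windows with 12 lay at FOS on chromosome 14 and at ANTXR2 and PRDM8 on chromosome 4, and windows with 11 at CD7 and SECTM1 on chromosome 17 and at C20orf203 on chromosome 20. In the FOS window, the ratios ran from 4.38 to 23.5, 2 loci held CACGTG, and the lists held 18 lost, 4 gained and 7 unchanged H2A.Zac regions of every kind.

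A locus lay in the body of 2535 of 20046 protein-coding genes (12.6%), and 84 genes held 5 or more. The genes named next were picked for their number of lost loci. That choice itself favors an excess of lost over gained regions in them. MYO3B, which encodes an unconventional myosin, held the most, with 17 lost loci, 1 gained and 10 unchanged regions. RUNX1, the hematopoietic transcription factor, held 16 lost loci, 5 gained and 10 unchanged regions over its annotated 1217 kb. Its loci were all intronic, had ratios of 4.49 to 21.3, and held CACGTG in 5 cases. MTSS1, an actin-binding membrane protein gene, held 14 lost and 0 gained, and KCNQ1, a potassium channel gene within an imprinted domain, 12 lost and 0 gained. PAPPA, a metalloproteinase gene, held 10 lost loci, with ratios of 7.42 to 42.5, and neither a gained nor an unchanged distal region without H2A.Z. GSE1 held 10 lost loci but 17 gained regions. The 8 genes with the most loci also included ENSG00000285382 with 11 and ENSG00000268797 with 9, which have no symbol.

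Within 50 kb of the gene body, 44.97% of all protein-coding genes had a lost locus and 35.0% a gained distal region without H2A.Z. A locus counted for a gene can thus lie outside it, also within another gene. Of 15 erythroid transcription factor genes, 11 had a lost locus and 12 a gained region. The highest lost ratios were near ZFPM1, the GATA1 cofactor (23.5), in GFI1B (18.9) and near GATA1 (13.0). The ZFPM1 and GATA1 loci lay outside those genes, 16.0 and 15.7 kb from their TSSs. Of 10 globin genes, 5 had a lost locus and 10 a gained region. The 5 share the same 2 loci, the higher of which, at a ratio of 9.65, lies between HBD and HBG1 and holds a GATA motif. Of 15 genes of heme synthesis and iron uptake, 8 had a lost locus and 7 a gained region, led by ALAS1, which encodes the first enzyme of heme synthesis (19.5), CPOX (19.1) and UROS (18.5). Of 20 red cell membrane genes, 8 had a lost locus and 12 a gained region. The lost ratios were at most 12.0, with the highest near DMTN, GYPC and ICAM4. Of 18 megakaryocyte genes, 8 had a lost locus and 9 a gained region, led by THBS1 (25.3), RUNX1 (21.3) and GP1BB (19.1).

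Of 18 genes of the JAK-STAT and BCR-ABL1 pathways, which drive this leukemia line, 13 had a lost locus and 12 a gained region, led by BCL2L1, which encodes BCL-XL (18.9), SOS1 (18.5) and SOCS1 (17.6). Of 19 genes of the MYC network and G1 cyclins, 10 had a lost locus and 9 a gained region, led by MGA (23.4), MXD4 (16.3) and CCND3 (14.3). MGA and MXD4 encode MAX partners that compete with MYC. The highest loci of MXD4 and CCND3 held CACGTG. Those of MGA, MYC, MAX and every other gene of this list with a locus did not. In the megakaryocyte list, the highest loci of RUNX1 and GP1BB held it too. Of 19 TIP60 subunit genes, 10 had a lost locus and 8 a gained region, led by an intronic locus of TRRAP itself (21.2), MORF4L1 (18.8) and MRGBP (17.1). Of 16 AP-1 and immediate early genes, 8 had a lost locus and 10 a gained region, led by FOS (16.3), IER2 (15.002) and EGR1 (10.99). FOS had 7 lost loci within 50 kb and neither a gained nor an unchanged distal region without H2A.Z, and its highest locus held both CACGTG and GATA. The lists are small, and the shares are given beside those of all genes as a description.

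Of the genes that the study names or edited, CCND1, TERT and DACH1 had no lost locus within 50 kb. EP400 had 2, with ratios of 8.50 and 6.37, the first 2.25 kb from its TSS between genes and the second in its coding sequence. PPP1R12C, which holds the AAVS1 site, had 3, with ratios of 10.8, 10.5 and 10.3, the first in an intron 7.90 kb from its TSS. Since the transgenes also carry EP400 coding sequence, native and transgene reads at the second EP400 locus cannot be told apart here.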

How the data were processed

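H2A.Z and H2A.Zac ChIP-seq was compared between the WT and ΔTRRAP lines. Per the submitters' processing notes, Bowtie2 2.4.5, deepTools 3.5.1, MACS2 2.2.7.1 and bedtools 2.30.0 were used, with hg38. The score of each deposited region is the authors' log10 likelihood ratio from MACS2 bdgdiff on merged replicates, with a cutoff of 3, after a filter on an IDR of 0.05. It is not a fold change. The lists hold 0 columns of per-sample values that were left unused.

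Overlaps were counted from 1 shared base. Genes came from GENCODE release 44, a later release than that of the study. Motifs were searched on both strands of the central 300 bases, and in windows 3 kb to each side. Intervals are Wilson 95% intervals. No test was made, because the lists used here hold no value per replicate and regions are not replicates.

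The loci named were the 8 highest ratios, the 8 genes and 5 windows of 100 kb with the most loci, the 3 highest genes of each of 9 lists, and the genes the study names or edited. Members and lists were chosen with earlier results of these data known.

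The overlap and motif code was tested on simulated data. Covered lengths and gaps of 5000 regions differed from bedtools 2.31.1 in 0 cases, and 0 of 2000 windows had a wrong motif call. Python 3.11.15, numpy 2.4.6, pandas 2.3.3, pysam 0.24.0 and samtools 1.23.1 were used. Alternatives were other TSS sets and windows, other overlaps with H2A.Z, higher ratio cutoffs, merging, a minimum width, base pairs and chromosomes left out.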

Additional observations from a re-analysis of the deposited data

How the results depend on the processing

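No paired analysis was possible because the lists come from merged replicates, and for the same reason no replicate could be left out. Repeat content and a search of unmasked sequence only were not run, since the genome used here has no repeat masking. Depth limits are unknown. Of 180 alternative values, 119 stayed within the interval of the reported share or within 1.5 times the count, and 61 did not. The lost loci held CACGTG more often than the gained regions under each alternative computed.

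With TSS windows of 2 kb to each side, 13.6% of loci were over 50 kb from a TSS, 47.6% had no other H2A.Zac region within 1 kb and 38.3% were over 10 kb from H2A.Z. With TSSs of protein-coding genes only, 37.3% were over 50 kb from a TSS. With TSSs of every transcript, 32.1% of regions were lost, 53.9% of changed regions were lost, 48.7% of loci were intronic and 7.75% were over 50 kb from a TSS. With H2A.Z allowed over under 25% of a region, 43.6% had no other H2A.Zac region within 1 kb and 34.5% were over 10 kb from H2A.Z. With no H2A.Z within 1 kb, the share lost among changed regions was 51.9%, the intronic share 51.9%, the share over 50 kb from a TSS 13.3%, the share with no other H2A.Zac region within 1 kb 55.8%, the share over 10 kb from H2A.Z 45.5% and the share with CACGTG 10.4%.

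At a ratio of at least 5, 26.0% of regions were lost, 53.6% of changed regions were lost, 52.8% of loci had no other H2A.Zac region within 1 kb and 38.2% were over 10 kb from H2A.Z. At a ratio of at least 10, 3587 loci remained, 12.6% of regions and 57.3% of changed regions were lost, 13.3% of loci were over 50 kb from a TSS, 71.1% had no other H2A.Zac region within 1 kb, 42.6% were over 10 kb from H2A.Z, 25.4% lay nearest to a promoter with a lost region, 8.84% were on chromosomes 19 and 20, and CACGTG was found in 10.6% of lost and 3.67% of gained regions. With regions merged within 1 kb, 34.1% of regions and 54.7% of changed regions were lost, 51.6% were intronic, 60.8% had no other H2A.Zac region within 1 kb, 41.7% were over 10 kb from H2A.Z and 22.8% lay nearest to a promoter with a lost region. By base pairs, 50.1% of changed sequence was lost, 13.3% was over 50 kb from a TSS, 37.3% was in loci with a GATA motif, 53.1% in loci with no other H2A.Zac region within 1 kb, 25.2% in loci nearest to a promoter with a lost region and 8.90% in loci with CACGTG. With regions of at least 500 bp, 5735 loci remained, 33.0% of regions were lost, 13.1% of loci were over 50 kb from a TSS, 36.8% held a GATA motif, 56.0% had no other H2A.Zac region within 1 kb and 38.7% were over 10 kb from H2A.Z.

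Without chromosomes 19 and 20, 30.6% of regions and 51.8% of changed regions were lost, 13.1% of loci were over 50 kb from a TSS and 22.9% lay nearest to a promoter with a lost region. With each chromosome left out, the share over 50 kb from a TSS fell to 11.5%, and the share on chromosomes 19 and 20 ran from 3.71 to 8.67% by construction. Over whole regions, 59.0% of loci held a GATA motif, and by protein-coding genes only, 36.9% were intronic. Without changed regions that share a base with an unchanged one, an alternative chosen after seeing the data, 28.5% of regions and 57.3% of changed regions were lost, 61.4% of loci had no other H2A.Zac region within 1 kb and 39.1% were over 10 kb from H2A.Z. Beyond what each setting itself removes, the cause was not tested.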
